A study of Mus musculus with 2 samples.

Results

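The EGF receptor family and its ligands were measured in mouse embryonic fibroblasts with and without Lats2, a kinase of the Hippo pathway. The genes were those named Egfr, Erbb2, Erbb3, Areg, Ereg, Hbegf, Tgfa, Btc, Egf or Nrg1 by the array, and all 10 were found, with 27 probes among the 41174 probes and 27579 genes of the array. Of these probes, 13 belonged to the 3 receptors and 14 to the 7 ligands. Total RNA from LATS2-/- (KO) and LATS2+/+ (WT) fibroblasts of C57BL/6J mice, both untreated, was hybridised together on 2 two-colour Agilent whole mouse genome arrays. KO was in Cy5 and WT in Cy3 on the first array, and the dyes were exchanged on the second. The labels name no separate cultures or embryos, so the dye swap was taken as 1 replicate of each genotype, and no test between genotypes was possible.

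Receptors of this family are tyrosine kinases that pair with one another when a ligand binds and then signal through the Ras-MAPK and PI3K cascades. Erbb2 has no known ligand of its own and Erbb3 has little kinase activity, so both work as partners. The ligands are made as membrane-bound precursors that are released by metalloproteases. In fibroblasts, EGF receptor signalling is known for driving proliferation, and some of the ligands are also known as genes that YAP, the factor restrained by LATS kinases, can switch on.

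Values are log2 ratios of the RNA labelled KO over the RNA labelled WT, with the second array turned, and the error of a mean is the SD between the 2 arrays. A gene was represented by its brightest probe and was called changed when its ratio passed 2-fold in the same direction on both arrays and its signal was well above background in the RNA with the higher level. Over all probes a single probe differed between the arrays with an SD of 0.133. Lats2 itself went against its label: 3 of its 4 probes gave a higher ratio in the RNA labelled KO, from -0.35 to 0.63 over all 4, and none of these probes is known here to lie in the deleted part. Directions below therefore refer to the RNA labelled KO or WT. All 9 measured fibroblast markers were well above background, against 2 of 6 epithelial, 0 of 4 endothelial, 2 of 5 macrophage and blood, and 1 of 4 muscle markers. The fibroblast markers also differed between the RNAs by their brightest probes: their median ratio was -0.41 and 7 of 9 were below 0. They ran from -0.89 for Vim, vimentin, to 0.89 for Fn1, fibronectin. The Vim value comes from a probe well above background only in the RNA labelled WT. The other of its 2 probes lacked a ratio on at least 1 array. Further probes well above background had means of 0.13 for Thy1, -0.06 for Pdgfra and -0.10 for Col3a1. That of Col1a1 was at -0.51, and those of Fn1 ran from 0.27 to 0.99. Among 5 Schwann and neural markers Mbp, a myelin protein gene, was called higher by its brightest probe (2.56 and 2.03 on the 2 arrays), though its other 2 probes had means of 0.43 and -0.06, and Sox10 was at -0.01 and 0.02. The part of these differences in the ratios below was not tested. In bulk RNA, fewer cells of a type and less RNA per cell cannot be told apart.

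None of the family was called changed. The count was 0 of 10 genes and 0 of 27 probes, beside 3.2% of all genes (2.95% of genes well above background higher in the RNA labelled KO and 2.61% lower). Ratios of the 10 genes ran from -0.17 for Erbb3 to 0.72 for Hbegf with a median of 0.161, and 9 of 10 were above 0, against a median of -0.00033 and 49.9% above 0 over all 27579 genes. The 9 include Areg and Btc, which were at background, and Egfr and Areg differed in sign between the arrays. A shift of the family as a set was not tested. The ligands Hbegf and Ereg stood first, at 1.65-fold and 1.40-fold, and the ratios of the other 8 genes were 0.23 or less in size. Both RNAs were well above background for 6 of 10 genes, 1 RNA for Erbb3 and Tgfa, and neither for Areg and Btc, which therefore could not be called.

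**Figure D1:**
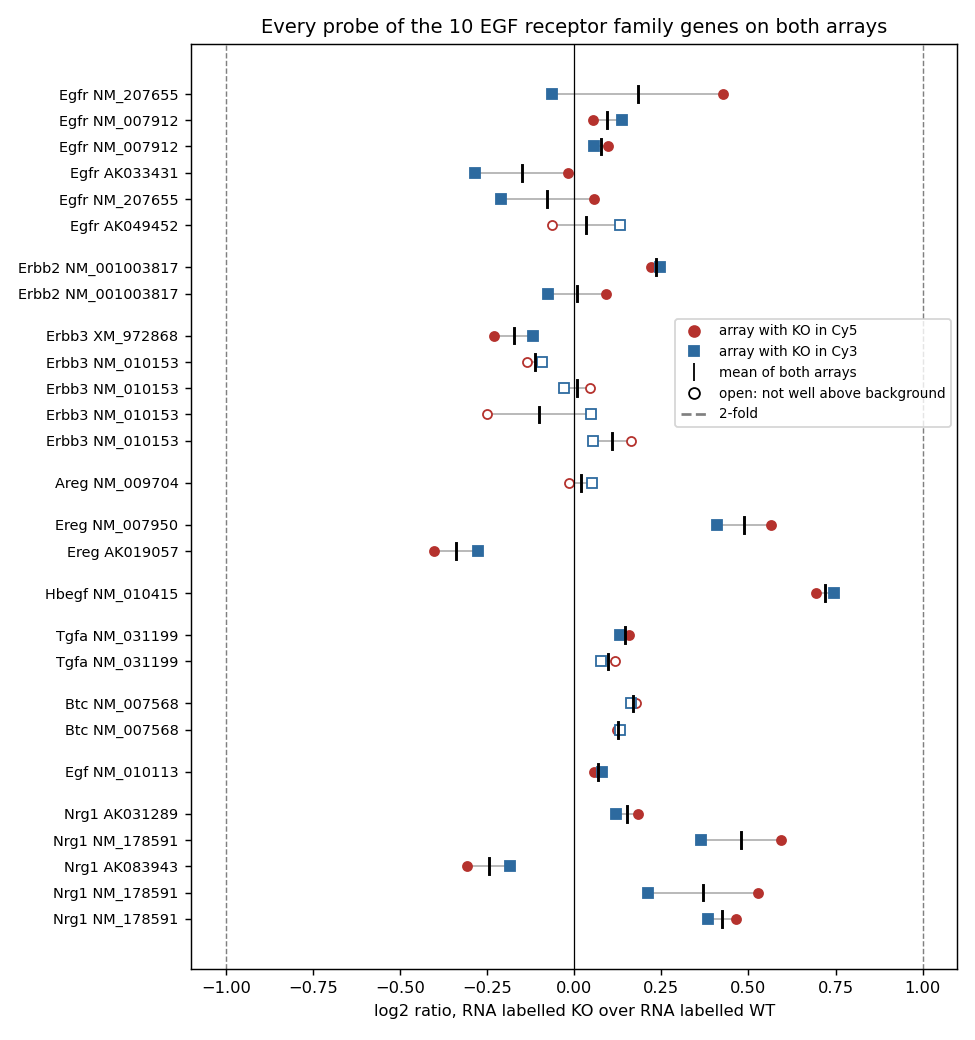
Log2 ratio (horizontal axis, RNA labelled KO over RNA labelled WT) of the 27 probes of the 10 genes, 1 row a probe with its gene and transcript accession, on the array with KO in Cy5 (circles) and with KO in Cy3 (squares). Open symbols mark probes well above background in neither RNA, the short bars are the means of both arrays, and all means lie inside the dashed 2-fold lines, with Hbegf farthest to the right at 0.72.

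Among the receptors, Egfr, which binds EGF and its relatives, was read by 6 probes. Its brightest probe, for transcript NM_207655 (chr11:16813815-16813874, coordinates of build NCBI36 throughout), gave signals of 1725 in KO and 523 in WT with KO in Cy5, and of 591 in KO and 1516 in WT with the dyes exchanged. The brighter signal was in the Cy5 channel each time, and the 2 arrays did not give the same direction: after normalisation within each array the ratios were 0.43 and -0.06. The mean was 0.18 ± 0.35 (SD, 2 arrays of 1 replicate). This probe was printed as 10 spots, and the 9 usable spots of the first array ran from 0.38 to 0.47 with a median of 0.43, while the 10 of the second ran from -0.14 to -0.02 with a median of -0.05. The disagreement was thus between the arrays and larger than the spread of spots within either. Of 1395 probes of like intensity, 1.94% had an SD between arrays at least as large. The other 5 Egfr probes had means from -0.15 to 0.10: both probes for NM_007912, transcript variant 2, were at 0.10 and 0.08, the second NM_207655 probe at -0.08, the cDNA clone AK033431 at -0.15, and the clone AK049452, which was not well above background, at 0.03. Over all 6 probes the mean ratio of Egfr was 0.03.

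Erbb2, the partner receptor without a ligand, gave the closest agreement between arrays among the receptors. Its brightest probe (NM_001003817, chr11:98252879-98252938) read 1688 in KO and 591 in WT with KO in Cy5, and 737 in KO and 1522 in WT with KO in Cy3. The ratios were 0.22 and 0.25, a mean of 0.23 ± 0.02 or 1.18-fold, and every spot of this probe lay above 0 on both arrays, from 0.19 to 0.28 on the first and from 0.21 to 0.30 on the second. A second probe for the same transcript 2220 bases away read 0.09 and -0.07, so the 2 probes did not give the same ratio. Of the genes well above background in both RNAs, 50% had a ratio at least as large as that of the brighter probe.

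Erbb3, the partner receptor with little kinase activity, was near the detection limit and was the 1 gene of the family with a ratio below 0. Its brightest probe (XM_972868, chr10:127970642-127970701) read 56.2 in KO and 58.9 in WT with KO in Cy5, and 44.8 in KO and 76.5 in WT with KO in Cy3, and was well above background on both arrays in WT and on neither in KO. The measured level was 1.13-fold higher in the RNA labelled WT (ratios -0.23 and -0.12), beside an SD of 0.127 for probes of like intensity. The KO signal was not reliably above background, and no bound apart from this measured ratio was obtained. The 4 probes for NM_010153 were well above background in neither RNA, with means from -0.11 to 0.11. Direction and size of Erbb3 thus rest on a single dim probe.

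**Figure D2:**
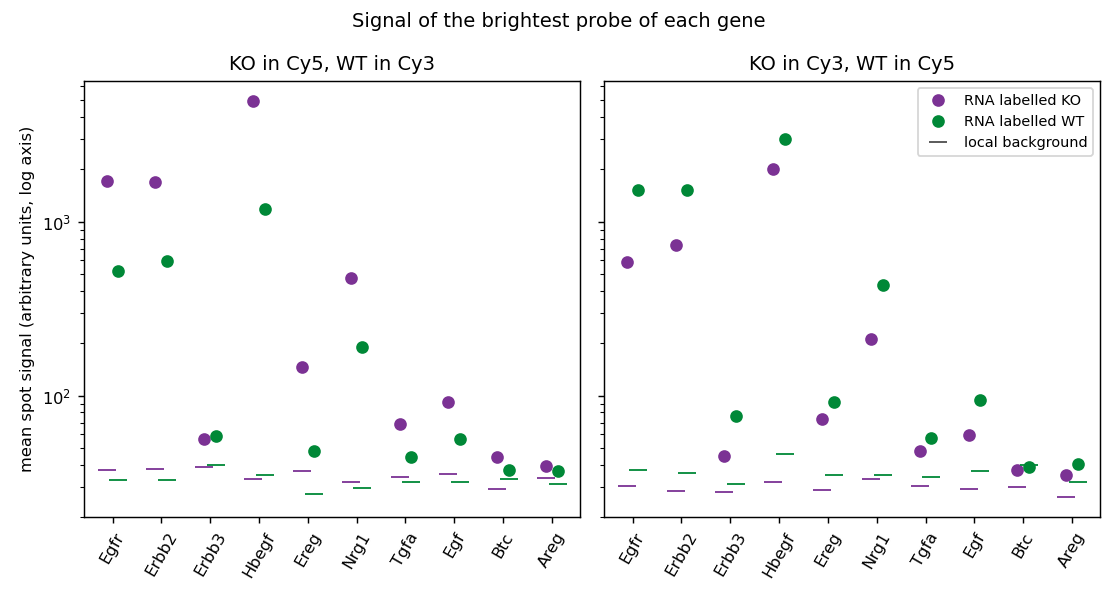
Mean spot signal (vertical log axis, arbitrary units) of the brightest probe of each of the 10 genes in both RNAs, with KO in Cy5 on the left and in Cy3 on the right; dashes are the local background. Egfr, Erbb2, Hbegf and Nrg1 stood far above background on both arrays, while Erbb3, Btc and Areg lay close to it.

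Among the ligands, Hbegf, a heparin-binding ligand of Egfr and Erbb4, had the largest ratio of the family with the processing used here. Its only probe (NM_010415, chromosome 18) read 4958 in KO and 1177 in WT with KO in Cy5, and 2015 in KO and 3002 in WT with KO in Cy3. The raw order of the 2 RNAs therefore turned with the dye, but the ratio within each array, set against all other probes, was 0.70 and 0.75. The mean was 0.72 ± 0.04, 1.65-fold higher in the RNA labelled KO, beside an SD of 0.135 for probes of like intensity. Of 14723 genes well above background in both RNAs, 12.1% had a ratio as large in either direction and 5.73% one as high. Hbegf was separated from Ereg, the next gene, by 0.23 on the log2 scale, and it stayed below the 2-fold call on both arrays.

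Ereg, epiregulin, had 2 probes under its name, and they pointed in opposite directions. The probe for the transcript NM_007950 (chr5:92167833-92167894) read 147 in KO and 47.9 in WT with KO in Cy5, and 73.7 in KO and 91.4 in WT with KO in Cy3, for ratios of 0.56 and 0.41. Its mean was 0.49 ± 0.11, or 1.40-fold. The probe for the cDNA clone AK019057 (chr5:92127088-92127147) read 76.5 in KO and 72.7 in WT, then 48.0 in KO and 114 in WT, for ratios of -0.40 and -0.28 and a mean of -0.34 (79.0% of WT). Neither probe changed sign between the arrays, and their 2 ranges did not overlap. The probes lie 40686 bases apart, more than the 19033 bases of the Ereg gene. Their coordinates are listed in opposite order, ascending for NM_007950 and descending for AK019057, though both carry the name Ereg. Of 15611 RefSeq mRNA probes on the array, 99.6% have an order that fits the strand of their gene. Whether the clone probe reads epiregulin mRNA was not tested. The ratio for epiregulin mRNA given here is that of the NM_007950 probe.

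The size of the Ereg ratio depended on the processing more than that of Hbegf. With the ratio computed by the scanner software, which differs in both background correction and normalisation, the NM_007950 probe gave 1.56 and 1.07 and passed the 2-fold call, and the clone's mean was -1.19; with the processing used here they were 0.49 and -0.34, and with a smaller offset of 10 or no background subtraction Ereg was at 0.81 and 0.72. Hbegf, which was bright, was at 0.74 with the software's ratio and 0.72 here.

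Nrg1, neuregulin, a ligand of Erbb3 and Erbb4 made as many isoforms, was read by 5 probes, all well above background in both RNAs. Its brightest probe, for the clone AK031289 (chr8:33281271-33281330), read 477 in KO and 192 in WT with KO in Cy5, and 212 in KO and 434 in WT with KO in Cy3, for ratios of 0.18 and 0.12. The 3 probes for the transcript NM_178591 gave higher ratios, of 0.59, 0.53 and 0.46 with KO in Cy5 and of 0.36, 0.21 and 0.38 with KO in Cy3, with means of 0.48, 0.37 and 0.42. One of these has coordinates that span 6501 bases, chr8:33297144-33303644, which is longer than a probe. The remaining clone, AK083943, was below 0 on both arrays, at -0.31 and -0.18, a mean of -0.25 or 84.3% of WT. On either array the 3 transcript probes lay above both clone probes, so Nrg1 had no single ratio: 1.29-fold to 1.39-fold by NM_178591, and 84.3% to 111% of WT by the clones.

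Tgfa, Egf and Btc, further ligands of Egfr, had small ratios above 0. The brightest Tgfa probe (NM_031199, chr6:86240478-86240537, 10 spots) read 69.1 in KO and 44.1 in WT with KO in Cy5, and 48.0 in KO and 57.2 in WT with KO in Cy3, and was well above background on both arrays in KO and on neither in WT. The measured level was 1.11-fold higher in the RNA labelled KO, with ratios of 0.16 and 0.13, beside an SD of 0.127 for probes of like intensity. No bound apart from this measured ratio was obtained. Single spots ran from 0.02 to 0.37 with KO in Cy5 and from -0.09 to 0.27 with KO in Cy3. Egf, with 10 spots of NM_010113 on chromosome 3, read 92.3 in KO and 56.7 in WT, then 59.3 in KO and 94.5 in WT. Its ratios of 0.06 and 0.08 gave a mean of 0.07 ± 0.01, and its spots lay on both sides of 0 on each array. The 2 Btc probes were well above background in neither RNA, with means of 0.17 and 0.13.

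Areg, amphiregulin, which is known as a YAP target in epithelial cells, was not detected. Its only probe (NM_009704, chr5) read 39.1 in KO and 37.0 in WT with KO in Cy5, and 35.0 in KO and 40.5 in WT with KO in Cy3, and was well above background in neither RNA. The ratio of 0.02 ± 0.05 is that of a probe at background and does not bound a change of the mRNA.

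Ordered by ratio, the 8 genes well above background in an RNA were Hbegf, Ereg, Erbb2, Egfr, Nrg1, Tgfa, Egf and Erbb3, while Btc and Areg, at background, have no place in the order. The steps from Hbegf to Ereg (0.23) and from Ereg to Erbb2 (0.25) were larger than the SD of 0.133 of a probe between arrays. That SD does not cover the choice of processing, under which the order of Hbegf and Ereg turned. With the scanner software's ratio Ereg was at 1.31 and Hbegf at 0.74, and with an offset of 10 at 0.81 and 0.74. The steps among the genes from Erbb2 to Egf were 0.076 or less, below that SD, so neighbours there cannot be ordered. The probes named Egfr, Erbb2, Ereg and Nrg1 spanned 0.33, 0.23, 0.83 and 0.73, about as much as the ratio itself or more.

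**Figure D3:**
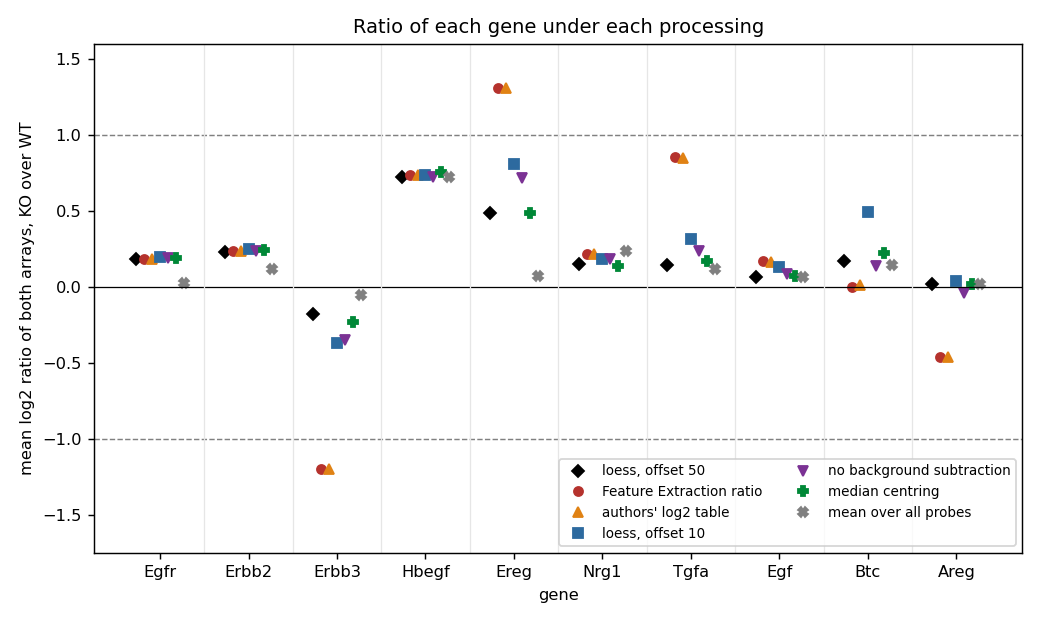
Mean log2 ratio of both arrays (vertical axis, RNA labelled KO over RNA labelled WT) of each of the 10 genes under 7 ways of processing, with dashed lines at 2-fold. Hbegf, Erbb2 and Nrg1 stayed within a narrow band, whereas the dim genes Ereg, Erbb3, Tgfa, Btc and Areg moved beyond the spread between arrays with the ratio of the scanner software, where Ereg reached 1.31.

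Other genes of the pathway were described from lists by role. Of 73 listed genes 72 were measured and 67 were well above background in an RNA; 0 were called higher and 1 lower, beside the 2.95% and 2.61% of genes well above background given above, and their median ratio was 0.02. Among other members of the family (4 of 5 measured, 2 well above background), Erbb4, the remaining receptor, was at 0.05 and 0.03 by a bright probe for XM_136682, while its 3 probes for NM_010154 were well above background in neither RNA, so the 2 kinds of probe did not give the same picture of its presence. Epgn, epigen, the ligand encoded beside Ereg, had ratios of -0.17 and -0.46.

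Of 10 genes for release of the ligands, 8 were well above background and 0 were called. Adam17, the main protease that sheds Hbegf, Tgfa and Areg, had the highest ratio, 0.44 and 0.53, a mean of 0.48 or 1.40-fold, with its 2 probes at 0.48 and 0.50. Nrd1, nardilysin, which enhances shedding of Hbegf, had the lowest, -0.55 and -0.33. Cd9, a tetraspanin that associates with the Hbegf precursor, was given by its dimmer probe since the brighter lacked a value on 1 array.

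Of 18 adaptors and Ras-MAPK genes, 0 were called and the median was 0.02. Araf, a Raf kinase, came closest, with ratios of 0.998 and 1.02 and a mean of 1.01 or 2.01-fold by the probe for NM_009703, where the lower of the pair lay just under the threshold; its second probe, for the clone AK133797, read 0.23 and -0.41. Of 17 genes for PI3K and other effectors, all well above background, 14 were above 0 and 0 were called. Their median was 0.27 (0.13 when all probes of a gene were averaged). They ran from Pik3r2, a regulatory subunit, at -0.32, to Pik3cb, a catalytic subunit, at 0.77. A second Pik3cb probe for the same transcript, well above background in neither RNA, had a mean of 0.11.

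Negative regulators and genes of receptor turnover held the only call. All 23 were well above background, 15 were below 0, and the median was -0.15, though it was -0.05 on the array with KO in Cy5 alone and -0.30 on the other. Lrig1, a membrane protein that promotes degradation of receptors of this family, had ratios of -1.07 and -1.25, a mean of -1.16 ± 0.13, and its level in the RNA labelled KO was 44.8% of that in WT. Sh3kbp1, an adaptor in receptor endocytosis, had the highest ratio of the list, 0.48. Next after Lrig1 came Ptprj, a receptor-type phosphatase, with ratios of -0.56 and -1.1 by its brighter probe. Its other probe, well above background in neither RNA, had a mean of -0.19. Lrig3, of the same family as Lrig1, had ratios of -0.78 and -0.61, and Errfi1, which encodes the receptor inhibitor MIG6, -0.69 and -0.58. None of these 3 passed the call, and they were named after their values were seen. Of the 23 genes of the list, 8 were above 0. Lrig1 rests on 1 probe and 1 replicate of each genotype. Its call was lost with median centring in place of loess, where the arrays read -0.14 and -2.07, and with the t-test of the study's methods.

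**Figure D4:**
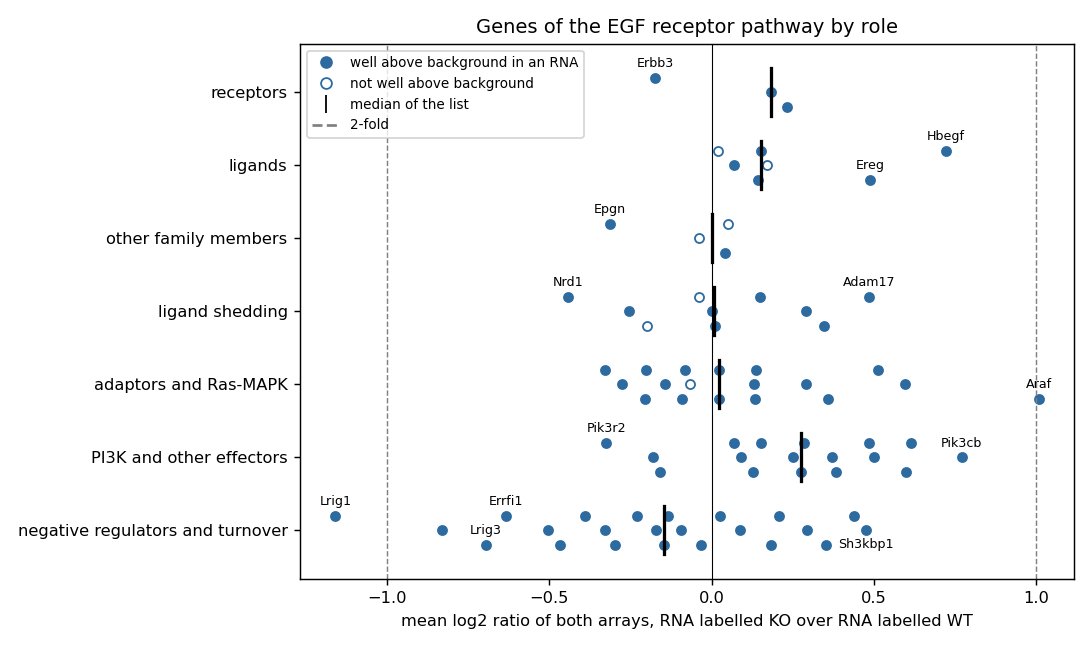
Mean log2 ratio of both arrays (horizontal axis, RNA labelled KO over RNA labelled WT) of each measured gene of the receptors, the ligands and 5 further lists of the pathway, with filled points well above background in an RNA, vertical bars at list medians and dashed lines at 2-fold. Lrig1 at -1.16 is the only called gene, and Araf at 1.01 lies at the line.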

How the data were processed

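RNA labelled KO and WT was compared on 2 dye-swapped arrays of 45018 spots. The deposited scanner files, made by the authors with Agilent Feature Extraction (version 10.5.1.1 per the submitters' processing notes), hold spot intensity in both channels, the log10 ratio of red over green, and flags for background and outliers. The authors' deposited series table holds log2 ratios of KO over WT from the same processed signals, and was used as an alternative. Mean signals were corrected against the local background median with normexp (offset 50) and normalised within each array by loess in limma (version 3.58.1, R 4.3.3); control spots and outlier-flagged spots (0.899% and 0.871%) had weight 0 and were then left out. The added offset draws ratios of dim probes toward 0. Spots of a probe were averaged, the second array's sign was turned, and the brightest probe with a value on both arrays stood for its gene. A probe was well above background if at least 0.5 of its spots carried that flag on both arrays. A bound for a dim RNA set the dim signal to the faintest level flagged well above background on that array, or to the probe's own where that was higher. For Erbb3 and Tgfa the probe's own was used, so the bound equalled the measured ratio. Genes named were all 10 family genes with their probes and, from each pathway list, every called gene and the highest and lowest well above background; a gene that this rule names is not reported here. The family genes and the lists were chosen with earlier results of these data known. Median signals were 96.8 (Cy5) and 60.1 (Cy3) where KO was in Cy5, and 98.5 and 58.2 after the swap; the number of arrays limits the precision. In simulated data with 200 of 41174 probes changed, the call recovered 69.7%, 73.1% and 88.1% of probes at true log2 changes of 1.5, 2 and 3. Gene names are those of the files, and probe positions were not placed in exons, since no annotation of build NCBI36 was used here.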

Additional observations from a re-analysis of the deposited data

How the results depend on the processing

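The count of 0 family genes called became 1, as did that of ligands, with the scanner software's own ratio and with the authors' deposited table (Ereg both times); under the other settings run, and for receptors under all of them, it stayed at 0. The single pathway gene called became 3 with the scanner software's ratio and 3 with the deposited table (Araf, Cblb and Lrig1), 2 with a normexp offset of 10, 2 when the mean of both arrays had to pass 2-fold and 2 with limma, whose adjusted p compares the RNAs hybridised and not genotypes (Araf and Lrig1 each time). It became 0 with median centring and 0 with the methods' t-test after Benjamini-Hochberg adjustment; unadjusted, that test called 1 gene, Araf in place of Lrig1. On single arrays it ran from 1 to 3 (Lrig1 on either; Araf and Ptprj also on the array with KO in Cy3). Of 80 recomputed list medians 6 moved, among them those of the negative regulators and the PI3K genes. Of 60 recomputed counts 48 stayed the same. Of 90 recomputed ratios of single family genes 20 moved beyond the spread between arrays and 5 had the opposite sign: Egfr (-0.06 on the array with KO in Cy3 alone) and Areg (-0.46 by the software and by the table, -0.04 without background subtraction, and -0.02 on 1 array). Erbb3 went to -1.20 and Tgfa to 0.86 with the software's ratio, Btc to 0 there and 0.50 with an offset of 10. The mean over both probes named Ereg was 0.07. The family's median of 0.161 ranged from 0.0969 to 0.221. KO and WT were hybridised together, so each ratio is already a comparison within an array. With 1 replicate of each genotype no further pairing was possible. Signal over background limits Erbb3, Areg, Btc and Tgfa.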
